A study of Mus musculus with 10 samples.

Results

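The 10 genes described here encode proteins of the contractile apparatus and the energy supply of skeletal muscle fibres: the myosin heavy chains Myh4, Myh1, Myh2 and Myh7, the troponin T genes Tnnt3 and Tnnt1, the troponin I genes Tnni2 and Tnni1, the skeletal muscle actin Acta1 and the muscle creatine kinase Ckm. They were matched by symbol to the Ensembl identifiers of the count tables, with the version number ignored, and all 10 of 10 were found among 47937 genes, of which 47224 had a symbol. The genes were chosen by their measured level in the libraries labelled HFD Mof+/- 1 and 2, where muscle transcripts were already known to be high, so that their levels in these libraries are a description and were not tested. The libraries were made from visceral white adipose tissue (WAT) of C57BL/6 mice, and adult white fat contains no skeletal muscle fibres of its own.

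Gene expression was measured by mRNA-seq in 10 libraries. The standard diet (SD) groups were wild-type mice (Mof+/+, 3 libraries) and mice heterozygous for Mof (Mof+/-, 3 libraries), all 8 weeks old. The high-fat diet (HFD) groups held 2 libraries of each genotype, from mice that were 27 weeks old after 20 weeks of HFD by the series' own description, so that diet and age cannot be told apart. The paper's text gives the HFD a longer duration, and whether a library came from 1 animal or from pooled animals is not given in the sources used here. Mof, listed as Kat8, encodes the acetyltransferase of histone H4 lysine 16.

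The total count on genes was 6724618 to 17171947 on SD. On HFD it was 15483115 and 16014992 for Mof+/+, but 1044355 and 5531786 for Mof+/-, so that values of replicate 1 of this group are the least precise for weakly expressed genes. Kat8 was at 20.1 CPM (counts scaled to a library total of 1000000) in HFD Mof+/- replicate 1, within the 18.1 to 21.5 CPM of the Mof+/+ libraries of both diets, and at 10.5 CPM in replicate 2, and it was at 11.5 to 18.8 CPM for SD Mof+/-. The targeted gene thus does not separate HFD Mof+/- replicate 1, with 21 counts, or SD Mof+/- replicate 2, with 196 counts, from the wild-type libraries, and libraries are named here as they were labelled. Inside the deposited tables, the headings of SD Mof+/+ 3 and SD Mof+/- 3 name each other's genotype, and the sample titles were followed here. The headings of HFD Mof+/- replicates 1 and 2 read het_HFD_3 and het_HFD_4. Transcripts of Xist were found in the SD Mof+/- libraries alone (390 to 2388 counts) and transcripts of Ddx3y in every library but these, so that sex-linked transcripts and genotype cannot be told apart on SD. The adipocyte list summed to 22646 to 90088 CPM over all libraries, lowest in HFD Mof+/- replicate 1, and all 10 of its genes, among them Fabp4, Car3 and Cidec, were counted in both HFD Mof+/- libraries.

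Skeletal muscle fibres are long multinucleate cells whose speed and fatigue resistance follow from the protein isoforms they build. Myosin heavy chain is the motor of the thick filament: Myh7 encodes the slow, oxidative form of type I fibres, Myh2 the fast oxidative form of type IIa fibres, Myh1 the fast form of type IIx fibres and Myh4 the fastest, most glycolytic form of type IIb fibres, which is abundant in the limb muscles of mice. The thin filament is switched on by calcium through troponin, and here too fast and slow fibres use different genes, Tnnt3 and Tnni2 in fast fibres and Tnnt1 and Tnni1 in slow fibres. Acta1 and Ckm serve all fibre types, the first as the actin of the thin filament and the second in the regeneration of ATP from phosphocreatine.

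The muscle transcripts stood out in both HFD Mof+/- libraries, and at very different levels. The 10 genes summed to 9.07, 69.3 and 23.7 CPM for SD Mof+/+ and to 18.9, 84.4 and 83.9 CPM for SD Mof+/-. They summed to 18.5 and 14.6 CPM for HFD Mof+/+, but to 49136 CPM in HFD Mof+/- replicate 1 and to 1213 CPM in replicate 2. The genes thus took 4.91% of all counts in replicate 1 (4.87% to 4.96%, the 95% interval by the exact method of Clopper and Pearson) and 0.121% in replicate 2 (0.118% to 0.124%), a 40.5-fold difference between libraries of the same group (39.5 to 41.6). All intervals given here cover counting error only. In bulk tissue, more muscle fibres and more RNA per fibre cannot be told apart.

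Of the 10 genes, 8 were higher in both HFD Mof+/- libraries than in both HFD Mof+/+ libraries, where 6.22% of all 20343 genes with a count in these libraries were. This contrast was used in choosing the genes, so that nothing is read from the count. The 2 exceptions were the slow genes Myh7, which was counted in replicate 1 alone, and Tnni1, which was counted in neither. In the comparison of the genotypes on HFD as a whole, 0% of 14120 genes passed an adjusted p-value of 0.05 in edgeR, against 1732 genes at an unadjusted p-value under 0.05 and 198 genes after adjustment in DESeq2. Of the members, 8 passed the filter on low counts in this comparison, while Myh7 and Tnni1 did not.

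**Figure D1:**
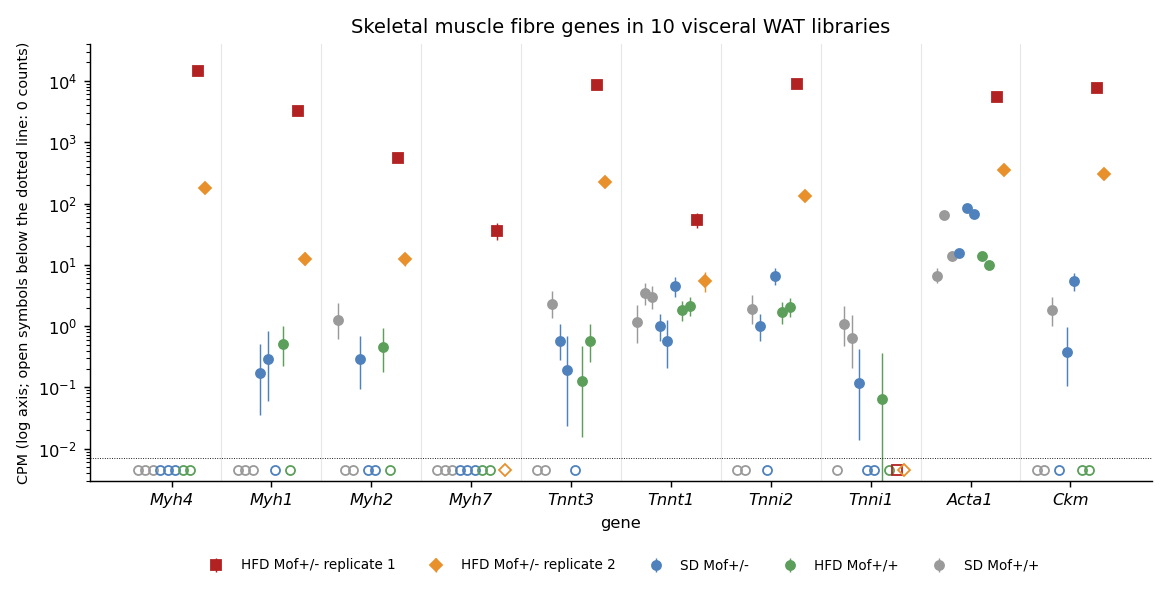
Expression of the 10 fibre genes in CPM (log axis) in each of the 10 libraries, with 95% counting intervals as bars and open symbols for 0 counts. HFD Mof+/- replicate 1 (red squares) lies above every other library for 9 genes and replicate 2 (orange diamonds) above the 8 libraries of the other groups for 8, against 7.85% and 8.73% of all genes, while Tnni1 was at 0 in both.

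Among the myosin heavy chains, the fast genes Myh2, Myh1 and Myh4 lie side by side on chromosome 11 of GRCm38 and on its forward strand, at chr11:67171027-67197517, chr11:67200052-67224575 and chr11:67238029-67260446. The slow gene Myh7 lies at chr14:54970684-54994626 on the reverse strand. The starts of these 4 genes are shown because the results turn on how unequally they were expressed. Each line runs 5′ to 3′ over 250 bases before the RefSeq start site and 30 bases from it (RefSeq, GRCm38.p6), and capitals mark the E-box of the MyoD family, the box of the basal promoter, and the MEF2 and CArG elements of muscle genes, on either strand. The E-box was searched as CANNTG. The basal box was searched as TATAAA, and in Myh2 it lies after the start site. The RefSeq start site of Myh4 lies before the gene start given above.
Myh4, chr11:67237562-67237841, strand +: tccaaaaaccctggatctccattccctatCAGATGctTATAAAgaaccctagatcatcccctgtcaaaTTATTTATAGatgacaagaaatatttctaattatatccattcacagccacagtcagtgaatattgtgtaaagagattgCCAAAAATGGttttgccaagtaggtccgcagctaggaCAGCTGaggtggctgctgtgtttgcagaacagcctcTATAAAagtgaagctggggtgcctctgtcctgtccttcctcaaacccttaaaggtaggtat
Myh1, chr11:67199852-67200131, strand +: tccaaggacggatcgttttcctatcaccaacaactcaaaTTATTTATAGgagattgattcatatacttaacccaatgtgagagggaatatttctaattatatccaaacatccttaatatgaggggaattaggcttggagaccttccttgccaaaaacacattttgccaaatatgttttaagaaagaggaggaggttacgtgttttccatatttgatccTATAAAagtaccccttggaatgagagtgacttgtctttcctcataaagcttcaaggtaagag
Myh2, chr11:67170777-67171056, strand +: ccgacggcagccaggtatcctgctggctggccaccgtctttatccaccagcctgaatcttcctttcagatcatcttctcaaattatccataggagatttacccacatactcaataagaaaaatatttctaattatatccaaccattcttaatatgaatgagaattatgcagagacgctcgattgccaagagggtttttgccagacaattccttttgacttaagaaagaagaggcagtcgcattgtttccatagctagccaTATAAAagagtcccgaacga
Myh7, chr14:54994520-54994799, strand -: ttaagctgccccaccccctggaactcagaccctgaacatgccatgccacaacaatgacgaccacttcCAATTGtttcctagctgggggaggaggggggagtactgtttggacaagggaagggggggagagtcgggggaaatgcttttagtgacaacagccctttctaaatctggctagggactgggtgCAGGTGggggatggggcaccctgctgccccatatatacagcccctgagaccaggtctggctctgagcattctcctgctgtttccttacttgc

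The MEF2 element was found in the windows of Myh4 and Myh1, where a basal box on the other strand overlaps it, and the CArG element in that of Myh4 and of Acta1. Of 32851 promoter windows of 300 bases in the RefSeq table, 3.19% held the MEF2 element, 1.63% the CArG element, 13.6% the basal box and 72.3% an E-box. The table held 10 windows for 8 members, of which 2, 2, 5 and 8 held these elements in the same order. The windows of Myh1 and Myh2 held no E-box, and that of Myh7 printed here held no basal box and no MEF2 or CArG letters. A match of letters does not show that a factor binds there, and the absence of a match says only that these letters are not in the window. Tnnt3 and Tnni2 had no window.

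Myh4, the gene of type IIb fibres, was the most counted of all 10 genes in replicate 1. It was not counted in any of the 8 libraries of the other groups, which allows at most 0.175 to 0.446 CPM at 3 counts per library. It was at 14505 CPM in HFD Mof+/- replicate 1 (14276 to 14736) and 176 CPM in replicate 2 (166 to 188). Against the limit of 3 counts over both HFD Mof+/+ libraries, this is at least 152290-fold and at least 1852-fold higher.

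Myh1, of type IIx fibres, was at 0 CPM in all of SD Mof+/+, at 0.175, 0.288 and 0 CPM in SD Mof+/- and at 0.517 and 0 CPM in HFD Mof+/+. It was at 3184 CPM in HFD Mof+/- replicate 1 and 12.7 CPM in replicate 2. This was the least equal pair of values among the 8 members counted in both libraries, with a ratio of 252 (199 to 324). Myh2, of type IIa fibres, was at 1.28, 0 and 0 CPM in SD Mof+/+, at 0.291, 0 and 0 CPM in SD Mof+/- and at 0.452 and 0 CPM in HFD Mof+/+. It was at 548 CPM in HFD Mof+/- replicate 1 and 12.5 CPM in replicate 2, a ratio of 43.9 (34.2 to 57.2). For both genes the HFD Mof+/- libraries did not overlap with any other library.

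Myh7, of slow type I fibres, had 0 counts in 9 libraries. In HFD Mof+/- replicate 1 it had 37 counts, or 35.4 CPM (24.9 to 48.8), which is at least 372-fold above the limit of 3 counts over both HFD Mof+/+ libraries. In replicate 2 the limit of 3 counts allows up to 0.542 CPM. At its share of the myosin counts in replicate 1, Myh7 would have given 2.16 counts in replicate 2, so that a slow share of the same size was not detectable at that depth.

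Within the counts on the 4 myosin genes, both libraries were led by Myh4. In replicate 1, Myh4 took 79.4% of 19082 counts (78.8% to 80.0%), Myh1 17.4% (16.9% to 18.0%), Myh2 3.00% (2.76% to 3.25%) and Myh7 0.194% (0.137% to 0.267%). In replicate 2, Myh4 took 87.5% of 1115 counts (85.5% to 89.4%), Myh1 6.28% (4.93% to 7.87%), Myh2 6.19% (4.85% to 7.77%) and Myh7 0%, where 3 counts would be 0.269%. The share of Myh1 was thus lower and those of Myh4 and Myh2 higher in replicate 2, with intervals that do not overlap, in single libraries whose spread between animals is unknown. The 3 fast genes together took 99.8% (99.7% to 99.9%) and 100% (99.7% to 100%). They also took all 15 counts in HFD Mof+/+ replicate 1 and all 10 in SD Mof+/+ replicate 1. This fast share is thus not particular to HFD Mof+/-. After division by exon length, Myh4 took 80.6% and 88.7% in HFD Mof+/- replicates 1 and 2.

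Myosin genes are close copies of each other, and the counting could split reads between them. Of the stretches of 100 bases in their reference transcripts, 9.73% in Myh1, 9.17% in Myh2 and 3.85% in Myh4 were also found in another myosin gene of the chromosome 11 cluster. In Myh7 it was 11.2%, all shared with the heart gene Myh6, which had 1 count in replicate 1 and 0 in every other library. The library kit did not mark strand, and antisense genes overlap exons of Myh1, Myh2, Myh7 and Ckm, whose reads cannot be told apart from theirs. The remaining 6 members share no such stretch and overlap no other annotated exon, apart from Ckm.

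Among the troponin genes, nearly all counts fell on the fast genes in the HFD Mof+/- libraries. Tnnt3 (chr7:142498836-142516009), the fast troponin T that anchors troponin to tropomyosin, was at 0, 0 and 2.32 CPM in SD Mof+/+, at 0.582, 0.192 and 0 CPM in SD Mof+/- and at 0.129 and 0.562 CPM in HFD Mof+/+. In HFD Mof+/- it was at 8671 CPM in replicate 1 and 226 CPM in replicate 2. Tnni2 (chr7:142441808-142444410), the fast troponin I that holds actin and myosin apart at rest, lies close to Tnnt3 and was at 0, 0 and 1.94 CPM in SD Mof+/+, at 0.99, 0 and 6.54 CPM in SD Mof+/- and at 1.68 and 2.06 CPM in HFD Mof+/+. It was at 9009 and 130 CPM in HFD Mof+/- replicates 1 and 2, above all other libraries.

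The slow troponin genes were low or at 0 in both libraries. Tnnt1 (chr7:4504570-4516382), the slow troponin T, was counted in every library, at 1.15, 3.42 and 2.97 CPM in SD Mof+/+, 0.99, 0.576 and 4.46 CPM in SD Mof+/- and 1.81 and 2.12 CPM in HFD Mof+/+. It was at 53.6 CPM in HFD Mof+/- replicate 1 (40.5 to 69.6), above all others, and at 5.42 CPM in replicate 2 (3.66 to 7.74), whose interval includes the highest SD value. Tnni1 (chr1:135779434-135810989), the slow troponin I, had 0, 8 and 5 counts in SD Mof+/+, 2, 0 and 0 in SD Mof+/-, 1 and 0 in HFD Mof+/+ and 0 in both HFD Mof+/- libraries. A value of up to 2.87 CPM in replicate 1 and 0.542 CPM in replicate 2 would leave at most 3 counts.

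Of the counts on the troponin T pair, the fast gene took 99.4% in replicate 1 (99.2% to 99.5%) and 97.7% in replicate 2 (96.7% to 98.4%). For HFD Mof+/+ it took 6.67% of 30 counts and 20.9% of 43 counts. Of the troponin I pair, the fast gene took all 9409 counts in replicate 1 and all 721 counts in replicate 2, so that the slow gene could take up to 0.0319% and 0.416% at 3 counts. The fast gene also took 26 of 27 counts (96.3%) and all 33 counts of this pair for HFD Mof+/+, and all 44 in SD Mof+/- replicate 3, so that the troponin I share does not set the HFD Mof+/- libraries apart, unlike the level.

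Acta1 and Ckm, which do not tell fibre types apart, were also highest in both HFD Mof+/- libraries. Acta1 (chr8:123891769-123894751) was the only member above 3 counts in all libraries besides Tnnt1, at 6.64, 64.8 and 14.1 CPM in SD Mof+/+, 15.7, 83.0 and 67.5 CPM in SD Mof+/- and 13.8 and 9.87 CPM in HFD Mof+/+. It was at 5418 and 352 CPM in HFD Mof+/- replicates 1 and 2. The highest SD values of Acta1 were in SD Mof+/- replicates 2 and 3 and in SD Mof+/+ replicate 2. The smooth muscle list summed to 3884 and 7696 CPM in the former and to 535 CPM in the latter, within the 489 to 868 CPM of every other library. Its part in the Acta1 counts was not tested. Ckm (chr7:19404776-19422841) was at 0, 0 and 1.81 CPM in SD Mof+/+, 0, 0.384 and 5.35 CPM in SD Mof+/- and 0 CPM in both HFD Mof+/+ libraries, and at 7712 and 298 CPM in HFD Mof+/- replicates 1 and 2. This is at least 80970-fold and at least 3124-fold above the limit of 3 counts over both HFD Mof+/+ libraries.

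Per length of exon (RPKM, CPM divided by the exon length in kilobases), the order of the members differed between the HFD Mof+/- libraries. In replicate 1, Tnni2 was highest at 6018 RPKM, followed by Tnnt3 at 5478, Acta1 at 3527, Ckm at 2647, Myh4 at 2411, Myh1 at 501, Myh2 at 76.7, Tnnt1 at 24.3 and Myh7 at 4.11 RPKM, and no neighbours in this order had overlapping counting intervals. In replicate 2, Acta1 was highest at 229 RPKM, followed by Tnnt3 at 143, Ckm at 102, Tnni2 at 87.1 and Myh4 at 29.3 RPKM, again without overlap. Tnnt1, Myh1 and Myh2 followed at 2.46, 1.99 and 1.75 RPKM, with intervals that overlap. The genes that led in replicate 1 relative to replicate 2 were thus Myh1, Myh4 and Tnni2, with ratios of 252, 82.2 and 69.1 (CPM), and those that led least were Ckm, Acta1 and Tnnt1, with ratios of 25.9, 15.4 and 9.89.

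**Figure D2:**
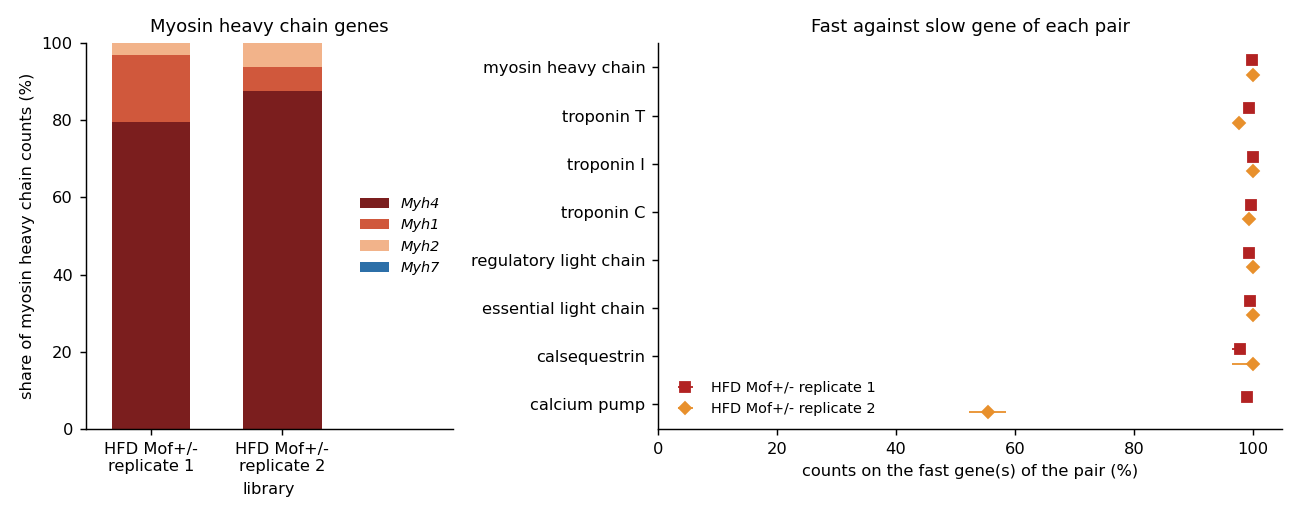
Left, share of each gene in the counts on the 4 myosin heavy chain genes in HFD Mof+/- replicates 1 and 2; Myh7, at 0.194% and 0%, is too thin to be seen. Right, percent of the counts of each fast and slow pair that fell on the fast gene or genes, with 95% counting intervals. All pairs lie above 97% except the calcium pump in replicate 2, at 55.4%.

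Further genes that differ between fast and slow fibres were examined as 2 lists. Of 13 fast fibre genes, 13 were higher in both HFD Mof+/- libraries than in both HFD Mof+/+ libraries, against the 6.22% of all genes given above. As these counts use the contrast that chose the members, nothing is read from them here or for the lists below. The highest fast genes in replicate 1 were Pvalb, the calcium buffer parvalbumin, at 6786 CPM, Tnnc2, the fast troponin C, at 5696 CPM, and Myl1, a fast myosin light chain, at 5399 CPM. Of 12 slow fibre genes, 3 were, Mb, Mybpc1 and Tnnc1, and 6 were at 0 in replicate 2. In replicate 1, 9 of the 12 were above all 8 libraries of the other groups. So were 13 of 13 fast genes and 7.85% of all genes. The slow list summed to 1779 CPM in replicate 1 and 393 CPM in replicate 2. It summed to 249 to 542 CPM in the other groups. Mb alone gave 1234 of the 1779 CPM. The highest slow genes in replicate 1 were Mb, the oxygen store myoglobin, at 1234 CPM, Mybpc1, a slow myosin-binding protein, at 160 CPM, and Tpm3, a tropomyosin also made outside muscle, at 123 CPM, below the 161 to 423 CPM of the libraries of the other groups. The shared sarcomere genes, which do not tell fibre types apart, were higher in 17 of 20 cases and summed to 10202 and 291 CPM in replicates 1 and 2. The other groups held 63.0 to 94.7 CPM, except for 391 and 1192 CPM in SD Mof+/- replicates 2 and 3. Both of these sums were above that of HFD Mof+/- replicate 2. In these SD libraries Ckm was at 0.384 and 5.35 CPM and Myh4 at 0, while the smooth muscle list summed to 3884 and 7696 CPM. Its part in these sums was not tested. In HFD Mof+/- replicate 2, 14 of 20 shared sarcomere genes were above all 8 libraries of the other groups, against 8.73% of all genes. So were 12 of 13 fast and 3 of 12 slow genes. In replicate 1 the shared sarcomere list was led by Ttn at 1638 CPM, Des at 1513 CPM and Tcap at 1408 CPM, which encode titin, desmin and telethonin.

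The fast gene of other pairs took most of the counts as well, in part also in libraries of the other groups. For troponin C it was Tnnc2 with 99.7% in replicate 1 and 99.4% in replicate 2, against Tnnc1. For the regulatory light chain it was Mylpf with 99.3% and 100%, against Myl2, and for the essential light chain Myl1 with 99.5% and 100%, against Myl3. For calsequestrin, the calcium store of the sarcoplasmic reticulum, it was Casq1 with 97.8% and 100%, against Casq2. Myl1 took 99.1% to 100% of its pair in all 8 libraries of the other groups. For HFD Mof+/+, Mylpf took all 10 and all 16 counts, and Casq1 92.6% and 92.0%. These shares are thus not particular to HFD Mof+/-. Tnnc2 took all 17 counts of its pair in SD Mof+/- replicate 1, but 72.4% of 29 counts in HFD Mof+/+ replicate 2. Myl2 and Myl3 had 34 and 30 counts in replicate 1 and 0 in replicate 2, whereas Myl6b, a light chain also made outside muscle, was at 0 in replicate 1 and had 90 counts in replicate 2. For the calcium pump, Atp2a1 took 99.1% in replicate 1 but 55.4% (52.4% to 58.5%) in replicate 2. The slow partner Atp2a2 is made in many cell types and was at 48.9 to 264 CPM in the libraries of the other groups, at 37.3 CPM in replicate 1 and at 85.1 CPM in replicate 2.

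The ratio of replicate 1 to replicate 2 was compared gene by gene. For the 8 members counted in both, it ran from 9.89 to 252 with a median of 41.2. For the 13 fast fibre genes it ran from 26.7 to 80.6 with a median of 43.7, and for 19 of 20 shared sarcomere genes from 1.94 to 784 with a median of 37.5, the highest being Actn2 with 2 counts in replicate 2 (215 to 6503). For the 5 of 12 slow fibre genes counted in both it ran from 0.439 to 102 with a median of 16.1, the lowest being Atp2a2 and Tpm3. Another 6 slow genes were counted in replicate 1 and at 0 in replicate 2, where 3 counts give bounds of at least 30.02 for Casq2 and Myoz2, 31.8 for Ankrd2, 53.0 for Myl3, 60.0 for Myl2 and 182 for Csrp3. With these and Myl6b (at most 0.177) at their bounds, the median of the 12 slow genes was 30.02. With Myh7 at its bound of at least 65.3, that of 9 members was 43.9, and with Myot at its bound of at least 355, that of the 20 sarcomere genes was 44.2. Over all 8733 genes with a count in both libraries the median ratio was 0.832. Of the members and slow fibre genes counted in both libraries, Myh1, Myh4 and myoglobin had ratios above those of all 13 fast fibre genes. That of myoglobin was 102 (79.7 to 132).

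**Figure D3:**
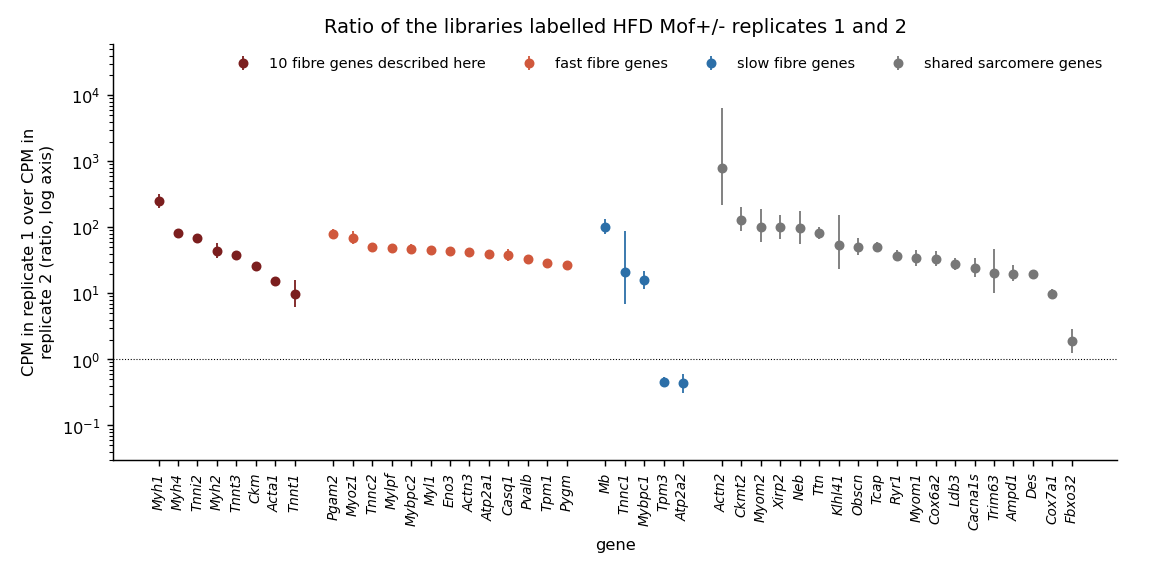
Ratio of the CPM in the library labelled HFD Mof+/- replicate 1 to that in replicate 2 (log axis) for each gene of 4 lists that was counted in both, with 95% counting intervals; the dotted line marks a ratio of 1. The fast fibre genes lie between 26.7 and 80.6, while the 8 of the 10 fibre genes that have a ratio spread from 9.89 to 252.

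Lists of other muscle and fat cells were read in the same libraries, to show what moved with the fibre genes. Of 10 heart muscle genes, 0 were higher in both HFD Mof+/- libraries than in both HFD Mof+/+ libraries, and Nppa, Nppb, Tnni3, Myl7, Mybpc3 and Hcn4 were at 0 in replicate 1, where Actc1, a cardiac and fetal actin, had 36 counts and Tnnt2, the cardiac troponin T, 9 counts. The smooth muscle list summed to 571 and 540 CPM in HFD Mof+/- replicates 1 and 2, within the 489 to 7696 CPM of the other libraries, and was led by Synpo2, Acta2 and Tagln, with Actg2, Cnn1, Lmod1 and Myocd at 0 in replicate 1. Of 10 genes of developing and repairing muscle, Myh3, Myog, Myod1, Myf5, Pax7, Chrng and Chrna1 were at 0 in replicate 1, the neonatal myosin Myh8 had 1 count, and Myf6, a MyoD family factor of mature fibres, had 48 counts there and 0 in every other library. Myl4, an atrial and fetal light chain in both of these lists, was at 21.1 CPM in replicate 1 and 80.3 CPM in replicate 2, against 4.73 to 28.4 CPM in the other groups. In replicate 2, 8 of the 10 developing muscle genes were at 0, all but Myl4 and Myog, and Myog had 17 counts there and 0 in every other library.

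The brown adipocyte list summed to 1015 and 508 CPM in HFD Mof+/- replicates 1 and 2, against 53.6 to 156 CPM in the other libraries, and 4 of its 10 genes were higher in both than in both HFD Mof+/+ libraries. In replicate 1 it was led by Cox8b at 650 CPM, a cytochrome oxidase subunit of muscle and brown fat, Pdk4 at 235 CPM, a kinase that turns fuel use to fat, and Ucp1 at 81.4 CPM, the uncoupling protein of brown fat. Ucp1 was at 3.62 CPM in replicate 2 and at 0 to 0.904 CPM in the other groups, while Dio2, Cpt1b, Elovl3, Ppara and Slc27a2 were at 0 in replicate 1. Their part in the fibre gene result was not tested.

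Mitochondrially encoded genes took 26.9% of the counts in replicate 1 and 1.79% in replicate 2, against 3.02% to 8.82% in the libraries of the other groups. Without these genes in the total, the fibre genes took 6.72% of the counts of replicate 1. Mesothelial genes, which mark the lining of visceral fat, summed to 175 CPM in replicate 1, with Msln and Upk3b at 47.9 CPM each, Gpm6a at 33.5 CPM and Wt1 and Bnc1 at 0, and to 1.99 CPM in replicate 2, where 6 of 8 were at 0. The other groups held 38.5 to 393 CPM. Of the adipocyte and mesothelial genes, 0 of 10 and 0 of 8 were higher in both HFD Mof+/- libraries.

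**Figure D4:**
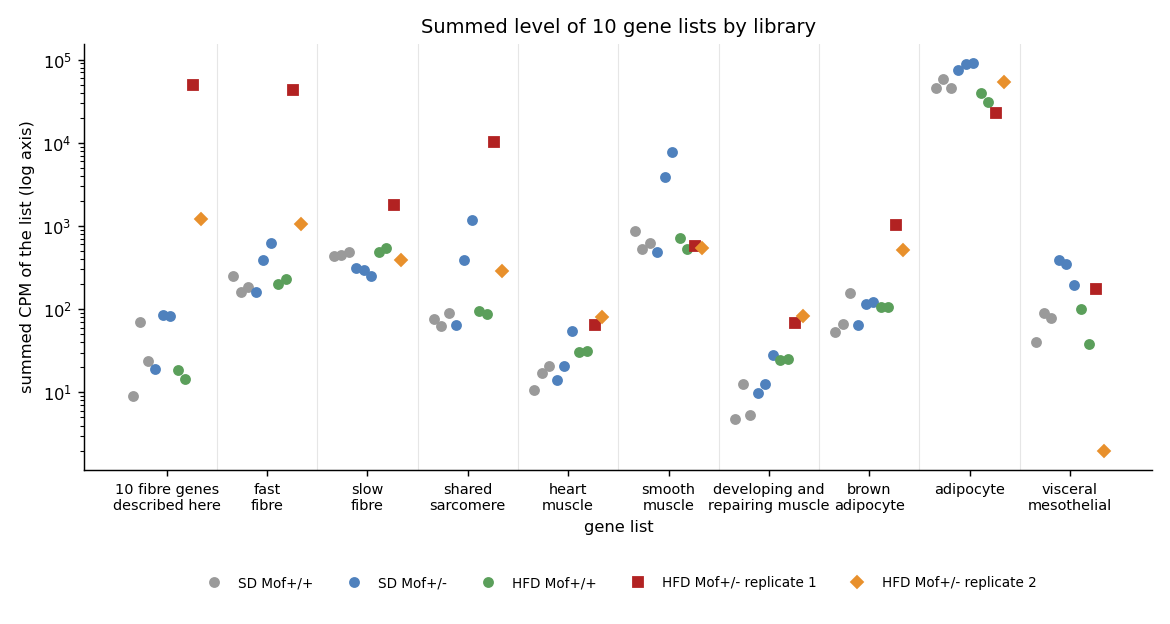
Summed CPM (log axis) of the 10 fibre genes described here and of 9 other gene lists in each of the 10 libraries. The skeletal muscle lists are highest in HFD Mof+/- replicate 1 (red squares), the smooth muscle list in 2 SD Mof+/- libraries, and the mesothelial list is lowest, at 1.99 CPM, in HFD Mof+/- replicate 2 (orange diamonds).

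The genotypes on SD and the diets in Mof+/+ were compared without the libraries that chose the genes. On SD, 2 of the 10 members passed the filter on low counts and 8 did not. For Mof+/- against Mof+/+, the change of Acta1 was 1.32 on the log2 scale, with a standard error of 0.85 and an adjusted p of 0.361 by edgeR, and that of Tnnt1 was 0.08, with a standard error of 1.16 and an adjusted p of 0.975, and the libraries of the genotypes overlapped for both. Without SD Mof+/+ replicate 2 the value of Acta1 was 2.81, and without SD Mof+/+ replicate 1 it was 0.85. With the grouping by column headings, Acta1 turned to -0.27 and Tnnt1 to -1.14. None of the members passed the threshold in edgeR (0 at an unadjusted p-value under 0.05, and 0 in DESeq2), where 5.24% of 13864 genes did, 25.7% at an unadjusted p-value under 0.05 and 13.9% of 15858 genes in DESeq2. Of the skeletal muscle lists, 6 of 13 fast, 4 of 12 slow and 6 of 20 shared sarcomere genes were tested and 0 passed in edgeR, with 1, 1 and 2 genes at an unadjusted p-value under 0.05 and 2, 0 and 1 in DESeq2. The median log2 fold change was 0.04, 0.22 and 1.32 in these lists and -0.07 over all genes tested.

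Between the diets in Mof+/+, 3 members passed the filter. For HFD against SD, the change of Acta1 was -1.16 on the log2 scale (SE 0.89, adjusted p = 0.443 by edgeR), that of Tnnt1 -0.23 (SE 0.99, adjusted p = 0.907) and that of Tnni2 1.66 (SE 1.88, adjusted p = 0.616). The sign of Acta1 rested on SD Mof+/+ replicate 2, without which the value was 0.33, and so did that of Tnnt1, at 0.0742. The value of Tnni2 was 7.49 without SD Mof+/+ replicate 3, the only library of its group with a count, and 1.08 and 1.09 without replicates 1 and 2, and it turned to -0.53 with the grouping by column headings. Again 0 members passed in edgeR (0 at an unadjusted p-value under 0.05, and 0 in DESeq2), where 9.75% of 14939 genes did, 28.4% at an unadjusted p-value under 0.05 and 18.1% of 16421 genes in DESeq2. Both comparisons share the SD Mof+/+ libraries.

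In the lists around them, 4 genes of the skeletal muscle lists changed between the diets in Mof+/+, and they are named because they passed. Tpm3 and Atp2a2 among them are also made outside muscle. Casq1 was at 0.383, 0 and 0 CPM on SD and 8.85 and 7.87 CPM on HFD, and rose by 6.01 on the log2 scale (SE 1.32, adjusted p = 0.0372 by edgeR), or by 9.65 without SD Mof+/+ replicate 1, the only SD library of these with a count. Ryr1, the calcium release channel of the sarcoplasmic reticulum, was at 0.639, 0.274 and 1.81 CPM on SD and 11.6 and 10.4 CPM on HFD, and rose by 3.71 (adjusted p = 0.0396 by edgeR). In the same HFD libraries Myh4 and Ckm were at 0. Tpm3 rose by 0.97 (adjusted p = 0.03897 by edgeR) and Atp2a2 fell by 0.83 (adjusted p = 0.04999 by edgeR). These 4 were 1 of 7 fast, 2 of 4 slow and 1 of 7 shared sarcomere genes tested, against 9.75% of all genes, with list medians of 0.31, -0.53 and 0.38 against -0.04 over all genes tested. No call of the 4 was kept with the grouping by column headings, with all 10 libraries in one fit, or without any one of HFD Mof+/+ replicates 1 and 2 and SD Mof+/+ replicates 1 and 2, where the adjusted p-values ran from 0.0509 to 0.923. With the replicate block, Ryr1 alone of them passed (adjusted p = 0.0334 by edgeR).

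The 15 genes whose expression followed the summed members most closely over the 10 libraries were found among 16170 genes with at least 50 counts, by Pearson's r of log2(CPM + 1). They were Actn3, Smtnl2, Cacna1s, Pgam2, Ampd1, Art1, Fabp3, Tcap, Sgca, Trim54, Rxrg, Mylpf, Ppp1r27, 2310002L09Rik and Nctc1, with r from 0.951 to 0.977. Of these, 6 are in the skeletal muscle lists used here, among them Actn3, the alpha-actinin of fast fibres, at 2351 and 55.7 CPM in HFD Mof+/- replicates 1 and 2 and at most 6.71 CPM in the other groups. Trim54, Ppp1r27, Nctc1 and Tcap were at 0 in all 8 libraries of the other groups. The members were chosen by their level in the HFD Mof+/- libraries, and these libraries largely set r. A gene high in them alone thus ranks near the top, so nothing is read from r or from the 6 genes. The points also share their libraries and depths. By Spearman's rho, which was 0.57 to 0.87 for the 15 named, 1 of them was also among the 15 closest.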

How the data were processed

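RNA was extracted from weighed visceral WAT, and polyA libraries were made with a kit that does not mark strand and sequenced in pairs. Reads were aligned by the authors with STAR (GRCm38) and counted on genes with featureCounts (Subread 1.5.0-p1), and they deposited these raw counts per gene without normalization. Their own testing used DESeq2 1.26. The release of the annotation and the strand setting of the counting are not given in the sources used here.

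Libraries were grouped by sample titles. CPM and RPKM were computed from the counts here, RPKM with the union of exons in GENCODE M21 (GRCm38). Identifiers were matched to symbols with the version ignored. The floor was 3 counts, and intervals were 95% exact Clopper-Pearson intervals, with PCR duplicates not identified. Genes with 1 or 2 counts made up 2.56% to 7.72% of the genes detected per library. Pairs of groups were compared in edgeR 4.0.16 (quasi-likelihood test, TMM, filterByExpr, Benjamini-Hochberg adjustment over all genes tested, threshold 0.05) in R 4.3.3, and the procedure was tested on simulated data. P-values measure the spread between the libraries of a group. DESeq2 1.42.0, other normalizations and filters, all 10 libraries in one fit, a replicate block, each library left out and the grouping by column headings were the alternatives. Figures were drawn with matplotlib 3.10.9 in Python 3.11.15.

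The members and 9 other lists, 112 genes in all, were chosen with earlier results of these data known. The lists were written from general knowledge. Named were all members, the 3 genes of each list highest in HFD Mof+/- replicate 1, its genes at 0 there and the 15 genes most like the members. Other named genes (the partners in fast and slow pairs, Tnnc1, Actn2, Myot, Csrp3, Ankrd2, Myoz2, Myh6, Myh8, Myf6, Myog, and Casq1, Ryr1 and Atp2a2 between the diets) were chosen after their values were seen.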

Additional observations from a re-analysis of the deposited data

How the results depend on the processing

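Between the genotypes on SD, the number of genes past the adjusted threshold was 727 in edgeR, 2198 in DESeq2, 1840 without a filter on low counts, 1235 with at least 10 counts in every library, 194 with all 10 libraries in one fit, 17 (without SD Mof+/- replicate 2) to 1026 (without SD Mof+/- replicate 1) with each library left out, 19, 35 and 74 without SD Mof+/+ replicates 1, 2 and 3, and 0 with the grouping by column headings. Between the genotypes on HFD it was 0, with 198 in DESeq2, 1 with all 10 libraries in one fit and 92 to 7551 with each library left out (4326 without HFD Mof+/- replicate 1, 7551 without replicate 2), where the lone library is assumed to vary like the other group. Between the diets in Mof+/+ it was 1457, with 2974 in DESeq2, 142 with all 10 libraries in one fit, 64 (without HFD Mof+/+ replicate 2) to 2230 (without SD Mof+/+ replicate 3) with each library left out, 249 without HFD Mof+/+ replicate 1, 250 and 889 without SD Mof+/+ replicates 1 and 2, and 0 with the grouping by column headings. With the replicate block, the counts were 428 on SD, 200 on HFD and 1460 between the diets. On HFD, the block pairs libraries whose headings carry different numbers. Same-numbered libraries share only a number. The correlation of their deviations from the group means was 0.0107, 0.00848 and 0.0354 on SD and 0.0166 on HFD. On SD, 2 of 3 SD Mof+/- libraries correlated best with their own number.

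Of 64 alternative values for the members tested (5 values, for Acta1, Tnnt1 and Tnni2), 0 passed the threshold, 55 kept their sign and 9 changed it. On SD, the log2 fold change of Tnnt1 was -0.30 with the replicate block, -1.34 to 0.54 with each library left out and -1.14 by column headings, and that of Acta1 was -0.27 by column headings and 0.85 to 2.81 with each library left out. Between the diets, Tnnt1 was at 0.0762 with the replicate block and -0.57 to 0.0742 with each library left out, Acta1 at -1.62 to 0.33 with each library left out, and Tnni2 at -0.53 by column headings and 1.08 to 7.49 with each library left out. The causes of these changes were not tested. Of the genes of the muscle lists that passed between the diets, Casq1 kept its call in 5 of 12 alternatives and Ryr1 in 6 of 12. Tpm3 and Atp2a2 kept theirs in 6 of 13 each, and no sign changed. With each library left out, Casq1 ran from 5.45 to 9.65. The share of the fibre genes in replicate 1 was 6.72% without mitochondrial genes in the total and 3.60% without Acta1 and Ckm, and in replicate 2 it was 0.0563% without Acta1 and Ckm. The ratio between the libraries was 54.4 without mitochondrial genes and 47.1 with TMM library sizes. Per exon length, the fast troponin genes took 99.8% in replicate 1. The fast share of the myosin genes moved by less than its counting interval. With 1044355 counts in replicate 1, a gene at up to 2.87 CPM would leave at most 3 counts there.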
